A study of Rattus norvegicus with 24 samples.

Results

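Liver messenger RNA of 24 adult females, Sprague-Dawley rats of a second (F2) generation, was compared by the diet their grandfathers (F0) had eaten, with the females' own diet held as a covariate. The 11 females whose grandfathers had eaten a high-fat diet (HFD) are called the HFD line, and the 13 females whose grandfathers had eaten chow are called the chow line. The chow line held 7 females on chow (GpatCD-CD) and 6 on an HFD (GpatCD-HF), and the HFD line held 6 on chow (GpatHF-CD) and 5 on an HFD (GpatHF-HF). The females' own HFD drew 42/45% of its energy from fat, in the labels' notation, and each female ate her diet for 12 weeks. The members of the comparison were chosen by the group name in each array's title, so the comparison takes in all 24 arrays of the series. No label links a rat to its litter or to 1 particular grandfather, and none gives the diet of the generation between. Each array was therefore treated as 1 independent animal, and p-values would be too small if females of a group were sisters or shared a grandfather.

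The labels of the samples say liver, while the text on animal keeping speaks of gonadal fat. Alb, which encodes serum albumin, sat at a log2 signal of 13.5 on all arrays but 29 (chow line, chow), where it was 13.4, and Hnf4a, a transcription factor of hepatocytes, lay between 11.7 and 12.1. Adipoq, which encodes the fat-cell hormone adiponectin, lay between 5.72 and 6.54, so the arrays read as the liver they are labelled as. Array medians of the deposited intensity were 116 ± 9.70 (SD, n = 13) in the chow line and 110 ± 4.89 (n = 11) in the HFD line. The HFD line was 5.79 units dimmer within own diet, or -5.79 as a signed difference (two-sided p = 0.0845 by 100000 permutations of line within own diet). The upper quartile was 455 ± 40.7 in the chow line and 436 ± 36.7 in the HFD line (permutation p = 0.186, with a difference of -21.3), and the arrays were brought to 1 distribution before any gene was compared. After that step, pairs of arrays had correlations of 0.975 to 0.993 over all probe sets. The first principal component, with 14.6% of the variance, set arrays 21, 22, 24 and 25 apart. They are 3 of the chow line, of which 22 was on the HFD, and 1 of the HFD line on the HFD, so differences of named genes over 0.1 in size that moved by over 1.5 times without these 4 arrays are also given without them.

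A father's or grandfather's diet can reach a descendant through the germ line or through the conditions in which the next generation is raised, among other routes. Sperm carry DNA methylation, modified histones and small RNAs, and each of these has been studied as a carrier of paternal dietary history. The liver is a usual place to look, because it makes cholesterol, bile acids, glucose and plasma proteins and adjusts the genes for each of them to what is eaten.

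No probe set differed between the lines past the threshold. Of 20917 probe sets tested, 0 had an adjusted p under 0.05 (0% called), and the smallest adjusted p was 0.102 (limma, Benjamini-Hochberg over all probe sets). Single arrays bore on this count, with 11 probe sets passing without array 24 (HFD line, HFD), 4 without 34 and 1 without 33 (both chow line, HFD) and 3 without 28 (chow line, chow), and weighting arrays by their quality gave 9. The 4 without array 34 and the 3 without array 28 were all probe sets of 1 gene, Samd9l, and those 3 hold identical values. The same 4 were among the 9. At an unadjusted p under 0.05, 1039 probe sets (4.97%) were higher in the HFD line and 924 (4.42%) were lower, together 9.38%. This is above the nominal share of 0.05 for both directions together. In the 4-group fit the share was 10.5% among females on chow and 5.75% among females on the HFD. Probe sets that vary together can also move this share, and its excess was not tested. The own-diet coefficient of the same fit, over the same arrays, called 383 probe sets (1.83%), of which 140 rose and 243 fell on the HFD. Both coefficients were estimated with the same standard error at every probe set, because both diets divide the arrays into 13 and 11. The smallest own-diet change that passed was 0.12 on the log2 scale, and the median size of those that passed was 0.35. The product of both diets, which asks whether the grandfather's diet acted differently on chow and on the HFD, called 0 probe sets (0%), with a smallest adjusted p of 0.146. At an unadjusted p under 0.05 it had 1403 of the 20917 probe sets.

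The confidence intervals say how large a grandpaternal effect these arrays still allow. The median half-width of the 95% interval was 0.13 on the log2 scale, or 1.10-fold, and ran from 0.09 at the 5th percentile of probe sets to 0.27 at the 95th. The whole 95% interval lay within a 1.5-fold difference in either direction for 20516 probe sets (98.1%) and within 2-fold for 20854 (99.7%), which left 63 probe sets for which a 2-fold difference was not excluded. With intervals widened to hold for all probe sets at once (Bonferroni), 16289 probe sets (77.9%) were bounded within 1.5-fold and 20094 (96.1%) within 2-fold. In 4 equal classes of probe sets from the dimmest to the brightest, the 95% intervals bounded 99.9, 97.8, 96.6 and 98.1% within 1.5-fold, and the Bonferroni intervals 93.1, 76.7, 66.5 and 75.3%. In the dimmest class, the offset of 16 added before the logarithm shrinks differences, so a narrow interval there bounds the signal more than the gene. Differences in level were small as well, with a median absolute log2 difference of 0.05 for grandpaternal diet and 0.06 for own diet. Point estimates over 2-fold were found for 7 probe sets by grandpaternal diet and 40 by own diet, and estimates over 1.5-fold for 32 and 120.

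**Figure D1:**
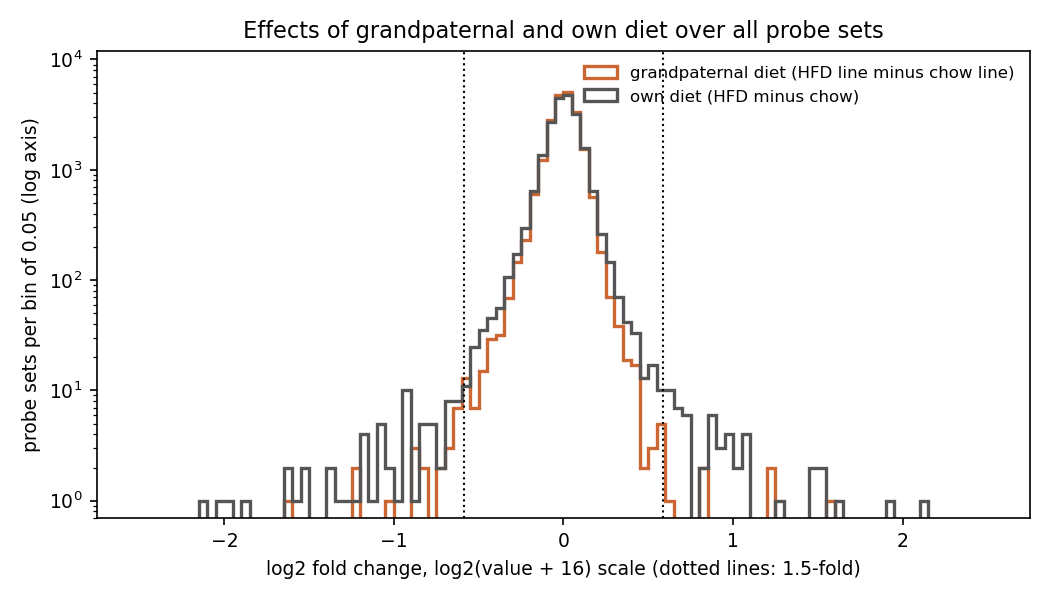
Histograms of the log2 fold change of all 20917 probe sets for grandpaternal diet (HFD line minus chow line) and for own diet (HFD minus chow), with the number of probe sets on a log axis and dotted lines at 1.5-fold. The grandpaternal estimates have 7 probe sets past 2-fold and 0 that passed the threshold, while the own-diet estimates reach further to both sides, with 40 past 2-fold.

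The genes nearest the threshold differed by modest amounts, and none passed. Zdhhc4, a palmitoyltransferase that attaches lipid to proteins, ranged from 9.37 over a median of 9.56 to 9.86 in the chow line and from 9.73 over 9.92 to 9.99 in the HFD line, in log2 signal. All 11 HFD-line arrays were above the chow-line median, and the lines still overlapped. Most genes given such a count here and below were picked by small p of this same contrast. The counts therefore describe the values and add no support, and their share over all probe sets was not computed. The difference was 0.30 (95% interval 0.19 to 0.41, 1.23-fold), with adjusted p = 0.102 by limma, and it was 0.33 among females on chow and 0.27 among females on the HFD. Samd9l, an antiviral factor whose gene responds to interferon, ranged from 7.61 over 8.32 to 9.06 in the chow line and from 7.59 over 7.76 to 8.14 in the HFD line. All 11 HFD-line arrays lay below the chow-line median, and in the chow line only arrays 28 (chow) and 34 (HFD), at 7.95 and 7.61, lay within the range of the HFD line. The log2 difference of Samd9l was -0.60 (-0.84 to -0.36, 1.52-fold lower, limma adjusted p = 0.102), at -0.58 on chow and -0.62 on the HFD. Of its 4 probe sets, 3 hold identical values and the fourth gave -0.57.

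Both genes passed in some fits with 1 array left out. Zdhhc4 had a limma adjusted p of 0.0134 without array 33 (chow line, HFD) and 0.0320 without array 24 (HFD line, HFD). Samd9l had 0.00604 without array 34 (chow line, HFD) and 0.0397 without array 28 (chow line, chow). Among chow-line arrays, 33 was the nearest to the HFD line for Zdhhc4, and 34 and 28 were the nearest for Samd9l. Leaving them out therefore raises the difference by itself. With any other single array left out, neither gene passed. When arrays were weighted by their quality, both had 0.0398. Without arrays 21, 22, 24 and 25 together, Zdhhc4 was at 0.26 (adjusted p = 0.128) and Samd9l at -0.55 (adjusted p = 0.140), by limma. Over all fits that left out 1 array, Zdhhc4 stayed between 0.28 and 0.33 and Samd9l between -0.66 and -0.54.

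The other 9 of the 10 higher genes of smallest p had differences of 0.21 to 0.40. Csnk2b, the regulatory subunit of casein kinase II, ranged from 10.4 over 10.7 to 11.1 in the chow line and from 10.8 over 11.1 to 11.5 in the HFD line, a log2 difference of 0.32 (0.17 to 0.47). All 11 HFD-line arrays were above the chow-line median. Rogdi, a gene whose loss causes a disorder of teeth and brain, was higher by 0.37 (0.21 to 0.54) and Tst, a mitochondrial sulfurtransferase, by 0.27 (0.14 to 0.39), each with 10 of 11 arrays above the chow-line median. Slc66a2, a membrane protein of the PQ-loop family, was higher by 0.40 (0.22 to 0.58) and Itgb5, an integrin beta chain, by 0.35 (0.17 to 0.52). Cox7a2, a subunit of cytochrome c oxidase, was higher by 0.31 (0.17 to 0.45) and Pelo, a factor that rescues stalled ribosomes, by 0.24 (0.12 to 0.36). Arpc3, a subunit of the actin-nucleating ARP complex, was higher by 0.23 (0.12 to 0.34) and Cebpg, a transcription factor of the C/EBP family, by 0.21 (0.11 to 0.32). Cebpg also rose on the females' own HFD (0.27, limma adjusted p = 0.00402). Without array 24 (HFD line, HFD), Rogdi, Slc66a2, Csnk2b and Tst passed for grandpaternal diet, with limma adjusted p-values of 0.0327, 0.0320, 0.0327 and 0.0279. Several of these genes are measured by a second, brighter probe set that differed less between the lines. It gave 0.06 for Cox7a2 (on both other probe sets), 0.12 for Itgb5, 0.16 for Slc66a2 and 0.16 for Pelo, with each of their intervals reaching below 0.

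The lower genes included signalling proteins, lectins and a GTPase of the interferon system. Inhba, which encodes the chain of the hormone activin A, ranged from 9.52 over 10.1 to 10.6 in the chow line and from 8.77 over 9.61 to 10.1 in the HFD line. Its log2 difference was -0.59 (-0.88 to -0.30, 1.51-fold lower), with 11 of 11 HFD-line arrays below the chow-line median. Fam13a, a gene that has been tied to fat distribution, ranged from 8.93 over 9.12 to 9.56 in the chow line and from 8.22 over 8.67 to 9.43 in the HFD line, a difference of -0.44 (-0.65 to -0.22). Here 10 of 11 arrays were below the chow-line median. Ifgga2l1, an interferon-inducible GTPase, ranged from 8.95 over 9.57 to 10.9 in the chow line and from 7.62 over 8.86 to 9.78 in the HFD line, a difference of -0.89 (-1.33 to -0.44). Its estimate was the largest of these 20 genes, and 9 of 11 HFD-line arrays were below the chow-line median. Colec10, a collectin of the innate immune system, was lower by 0.23, or -0.23 (-0.35 to -0.12), and Galnt5, which starts O-linked sugar chains, had -0.20 (-0.30 to -0.10). Wtip, a LIM-domain protein, had -0.27 (-0.40 to -0.14) and Armcx3, a protein of the mitochondrial surface, -0.26 (-0.39 to -0.13), each with 11 of 11 arrays below the chow-line median.

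Fam120a and Minar1 were also lower in the HFD line. The size for Fam120a differed between the own diets without passing, and Minar1 also changed with own diet. Fam120a, an RNA-binding scaffold protein, had -0.21 (-0.30 to -0.12) over both diets, but -0.33 among females on chow and -0.07 among those on the HFD. The difference of those effects had an unadjusted p of 0.00223 and did not pass over all probe sets by limma. Among females on chow alone, Fam120a passed (limma adjusted p = 0.0245), as it did over both diets without array 24 (0.0320), and its second, brighter probe set gave 0.03 (-0.04 to 0.11) over both diets. Minar1, a membrane protein of the Notch pathway, had -0.35 (-0.50 to -0.20) for grandpaternal diet and rose by 0.40 on the females' own HFD (limma adjusted p = 0.00240). Together, 20 genes near the threshold had limma adjusted p-values from 0.102 to 0.280.

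**Figure D2:**
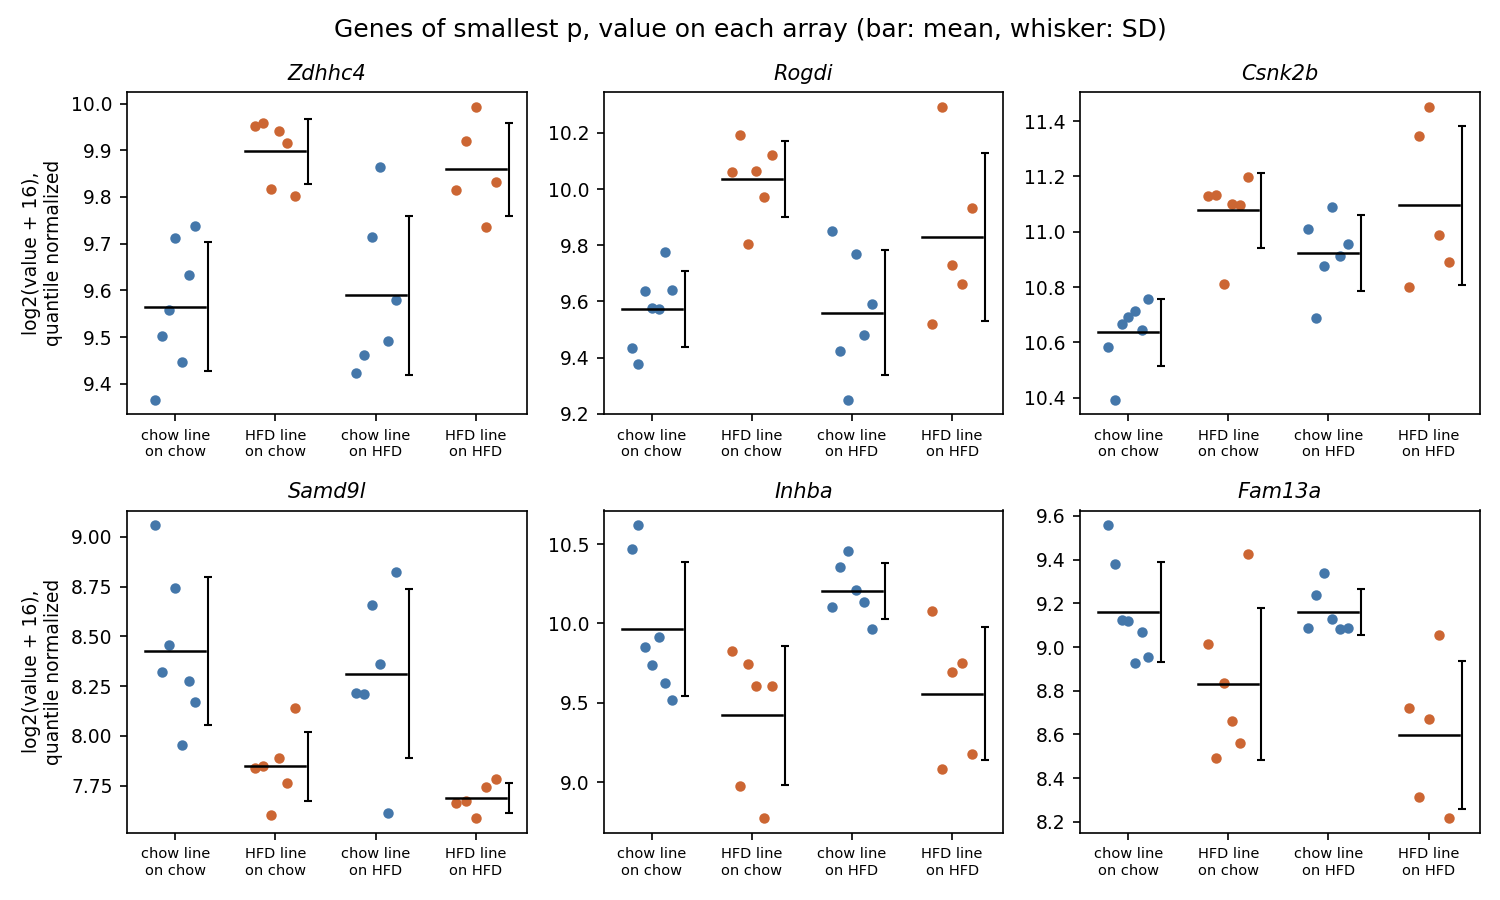
Log2 signal of Zdhhc4, Rogdi, Csnk2b, Samd9l, Inhba and Fam13a on each of the 24 arrays in the 4 groups, with chow-line arrays in blue and HFD-line arrays in orange, the bar at the group mean and the whisker at 1 SD. The lines overlap in every panel, and all 11 HFD-line arrays lie above the chow-line median for Zdhhc4 and Csnk2b and below it for Samd9l and Inhba.

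Genes of the interferon response were lower in the HFD line almost throughout, by amounts that did not pass singly. Interferons are signal proteins of antiviral defence. Cells that sense them activate STAT and IRF factors, which bind an element in front of the genes for antiviral enzymes, guanylate-binding GTPases and chemokines. Of 32 listed genes 28 were measured, and 27 of these had a log2 difference below 0, with a median of -0.23 beside 0.00 over all probe sets. By limma 0 of 28 passed the threshold, 11 were lower and 1 higher at an unadjusted p under 0.05, where 4.42% and 4.97% of all probe sets were. Genes that share these factors can vary together over arrays, so the counts do not stand for 28 independent results. The list was also chosen with earlier results of these data known. The 95% interval lay within 1.5-fold for 19 of the 28 genes and within 2-fold for 25, beside 98.1% and 99.7% of all probe sets. The median was -0.17 among females on chow, with 24 genes below 0, and -0.28 among females on the HFD, with 25 below 0. Averaged over the members and centred on each gene's mean, the arrays ranged from -0.33 over 0.04 to 0.41 in the chow line and from -0.56 over -0.11 to 0.17 in the HFD line. Array 24 (HFD line, HFD) was the lowest of all, and without arrays 21, 22, 24 and 25 the list had 27 of 28 genes below 0, a median of -0.22 and 8 genes lower at an unadjusted p under 0.05.

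The sequence in front of 4 of these genes is shown because they are the list members of smallest p, from 2 families of antiviral proteins and 1 further interferon-induced gene. The windows are the 250 bases before the gene start, from RefSeq on build GRCr8, written 5′ to 3′ on the gene's own strand. Oasl2 lies at chr12:47383186-47383435 on the minus strand, and on the plus strand Gbp5 lies at chr2:233910749-233910998, Ifi44l at chr2:243328473-243328722 and Oas1a at chr12:41330216-41330465.
Oasl2: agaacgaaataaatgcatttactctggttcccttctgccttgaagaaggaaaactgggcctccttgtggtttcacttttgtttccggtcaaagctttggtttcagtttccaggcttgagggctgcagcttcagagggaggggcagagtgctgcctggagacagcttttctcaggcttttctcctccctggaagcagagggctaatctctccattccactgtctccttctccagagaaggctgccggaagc
Gbp5: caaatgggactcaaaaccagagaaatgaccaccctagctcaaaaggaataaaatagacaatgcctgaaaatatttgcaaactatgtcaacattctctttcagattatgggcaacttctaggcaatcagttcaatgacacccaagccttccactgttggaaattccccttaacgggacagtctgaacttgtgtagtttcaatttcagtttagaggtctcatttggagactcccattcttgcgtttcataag
Ifi44l: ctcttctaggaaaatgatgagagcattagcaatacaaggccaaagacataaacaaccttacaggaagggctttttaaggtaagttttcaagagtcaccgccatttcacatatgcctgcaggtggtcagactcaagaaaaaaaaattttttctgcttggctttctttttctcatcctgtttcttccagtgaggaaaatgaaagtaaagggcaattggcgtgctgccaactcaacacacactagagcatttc
Oas1a: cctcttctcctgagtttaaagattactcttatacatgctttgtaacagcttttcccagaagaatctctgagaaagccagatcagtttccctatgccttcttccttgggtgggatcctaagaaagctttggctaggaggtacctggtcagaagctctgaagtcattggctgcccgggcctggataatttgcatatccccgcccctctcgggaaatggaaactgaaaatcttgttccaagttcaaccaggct

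Of the 28 measured interferon genes, 20 matched a window by gene identifier. The share of G and C in the window was 51.2% for Oasl2, 46.8% for Oas1a, 40.4% for Ifi44l and 40% for Gbp5. Over the 20 interferon genes the median was 49%, from 39.6 to 71.2%, beside 52% over 27457 windows of all genes.

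Among the antiviral enzymes, Oasl2, a protein like the oligoadenylate synthetases that sense double-stranded RNA, ranged from 6.33 over 6.83 to 7.53 in the chow line and from 5.75 over 6.44 to 6.76 in the HFD line. All 11 HFD-line arrays were below the chow-line median, with a log2 difference of -0.49 (-0.76 to -0.22). The effect was alike on both own diets, at -0.48 on chow and -0.49 on the HFD. Oas1a, an oligoadenylate synthetase, ranged from 7.30 over 8.54 to 9.61 in the chow line and from 6.56 over 7.87 to 8.82 in the HFD line, a difference of -0.80 (-1.34 to -0.27) with 10 of 11 arrays below the chow-line median. Oasl had -0.45 (-0.79 to -0.12), with 11 of 11 below. Usp18, which removes the ubiquitin-like tag Isg15 from proteins, had -0.52 (-1.06 to 0.02), and Isg15 itself had -0.31 (-0.62 to 0.01). Mx1, an antiviral GTPase, had -0.26 (-0.55 to 0.03).

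Among the guanylate-binding proteins, Gbp5 ranged from 7.20 over 7.72 to 8.03 in the chow line and from 7.20 over 7.35 to 7.64 in the HFD line, a difference of -0.29 (-0.46 to -0.12). All 11 HFD-line arrays were below the chow-line median. Gbp2 had -0.24 (-0.44 to -0.04), at -0.42 on chow and -0.02 on the HFD, and the difference of those had an unadjusted p of 0.0358. Ifi44l, an interferon-induced protein, ranged from 7.51 over 7.84 to 8.27 in the chow line and from 7.20 over 7.40 to 7.86 in the HFD line, a difference of -0.32 (-0.52 to -0.12). Of the factors that drive the response, Irf1 had -0.29 (-0.54 to -0.04) and Irf7 -0.23 (-0.58 to 0.12), the latter at -0.14 without array 24 (HFD line, HFD). The chemokine Cxcl10 had -0.29 (-0.59 to 0.02). Rtp4, an interferon-induced chaperone of receptors, had 0.03 on chow and -0.75 on the HFD, a difference of effects with an unadjusted p of 0.00986. For such differences of effects, 1403 of 20917 probe sets had an unadjusted p under 0.05 by limma, and none passed.

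Ifit1, an antiviral protein that binds viral RNA, was the 1 gene of the list above 0, and it had the widest interval. It ranged from 4.46 over 4.77 to 8.34 in the chow line and from 4.82 over 6.99 to 8.24 in the HFD line, a difference of 1.23 (0.27 to 2.19, limma adjusted p = 0.447). Its neighbour in function Ifit3 had -0.21 (-0.37 to -0.05), with 10 of 11 HFD-line arrays below the chow-line median.

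**Figure D3:**
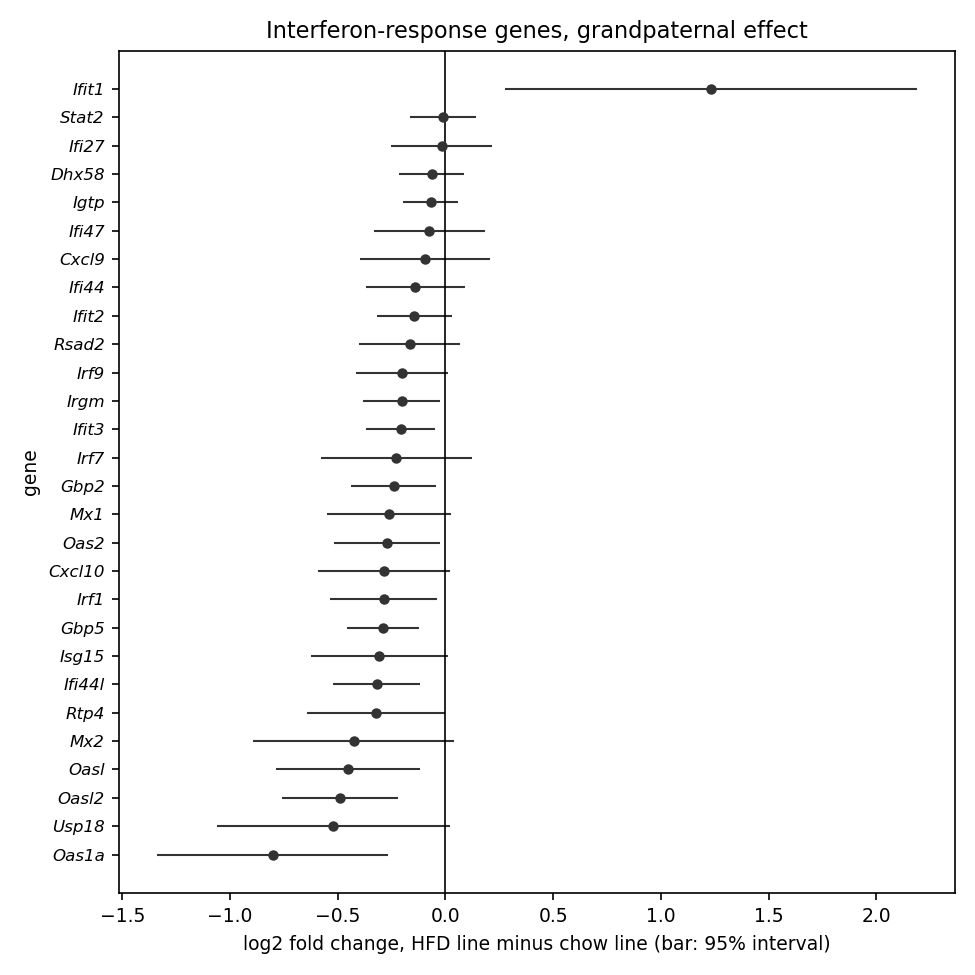
Log2 fold change of grandpaternal diet (HFD line minus chow line) for the 28 measured interferon genes, with points at the estimate and whiskers at the 95% confidence interval. 27 of the points lie left of 0, from -0.80 for Oas1a upward, and Ifit1 alone lies to the right at 1.23.

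Immune cells carry many of these genes, and in bulk liver fewer cells of a type and less RNA per cell cannot be told apart. Of 13 measured Kupffer cell markers, 11 were below 0, with a median of -0.05, at -0.20 on chow and 0.10 on the HFD. Their score, a mean over members after centring each gene, ranged from -0.67 over 0.05 to 0.58 in the chow line and from -0.37 over -0.04 to 0.39 in the HFD line. Folr2, a folate receptor of resident macrophages, had -0.33 (-0.60 to -0.06), while Marco, a scavenger receptor, had -0.19 (-0.51 to 0.13). Of 16 lymphocyte markers 4 were below 0, with a median of 0.01, and their score ranged from -0.14 to 0.26 in the chow line and from -0.19 to 0.14 in the HFD line. Of 11 neutrophil markers 7 were below 0 (median -0.02), with scores of -0.09 to 0.19 and of -0.13 to 0.08, and Lcn2, which is also an acute-phase gene of hepatocytes, had -0.56 (-0.97 to -0.14). What part these cells had in the interferon values was not tested.

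Other immune genes gave single differences in lists with medians near 0. Antigen presentation had 8 of 17 genes below 0, a median of 0.00 and 3 genes lower at an unadjusted p under 0.05, where 4.42% of all probe sets were. They were RT1-CE10, a class I histocompatibility gene, at -0.27 (-0.48 to -0.06), Psmb9, an immunoproteasome subunit, at -0.17 (-0.30 to -0.03), and Tap1, the peptide transporter, at -0.19 (-0.35 to -0.03). Psmb9 also fell on the females' own HFD (-0.32, limma adjusted p = 0.00872). Among 27 cytokine and chemokine genes, 15 were below 0, with a median of -0.04. Ccl2, which draws monocytes, ranged from 7.23 over 8.25 to 9.56 in the chow line and from 7.17 over 7.73 to 8.19 in the HFD line, a difference of -0.54 (-0.90 to -0.19). Il10, an anti-inflammatory cytokine, had -0.17 (-0.27 to -0.06). Both had 11 of 11 HFD-line arrays below the chow-line median, and neither passed by limma, with adjusted p-values of 0.395 and 0.388. The 23 acute phase and complement genes had a median of -0.01, with 0 passing.

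The cholesterol genes, the set most sensitive to the females' own diet, were all but 1 bounded within 1.5-fold for grandpaternal diet. Dhcr7, which catalyses the final step of synthesis, fell by 1.25 on the own HFD on the log2 scale (limma adjusted p = 2.08e-11) and had a grandpaternal difference of 0.14 (-0.01 to 0.28). Both contrasts use the same 24 arrays, so their values are set side by side without a test between them. Acat2, which makes acetoacetyl-CoA, had -1.63 for own diet and -0.00 (-0.34 to 0.34) for grandpaternal diet, Cyp51, the lanosterol demethylase, -1.09 and -0.02 (-0.24 to 0.21), and Fdft1, the squalene synthase, -0.75 and -0.02 (-0.18 to 0.14). Stard4, a sterol carrier, had -0.77 for own diet and -0.07 (-0.23 to 0.09) for grandpaternal diet. Idi1, the isopentenyl diphosphate isomerase, had the widest interval of these, with -1.98 for own diet and -0.31 (-0.74 to 0.12) for grandpaternal diet, which was -0.13 without arrays 21, 22, 24 and 25. Of 16 measured synthesis genes 13 were below 0, with a median of -0.03, and 15 had intervals within 1.5-fold, where 98.1% of all probe sets did. Lss, the lanosterol synthase, was the 1 gene at an unadjusted p under 0.05, at -0.29 (-0.54 to -0.05, limma adjusted p = 0.469). The 17 genes of sterol sensing and uptake had a median of 0.03, and Soat2, which esterifies cholesterol, had 0.11 (0.01 to 0.22).

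The genes that rose most clearly on the females' own HFD had grandpaternal differences of 0.23 or less, with intervals of unequal width. Setbp1, a DNA-binding protein, had 0.55 for own diet and 0.05 (-0.06 to 0.17) for grandpaternal diet, and Synj2, a phosphoinositide phosphatase, 0.60 and 0.12 (-0.05 to 0.29, and 0.06 without arrays 21, 22, 24 and 25). Spink1l and Spink1, serine protease inhibitors, had 1.93 and 1.06 for own diet. Their grandpaternal values were -0.00 (-0.50 to 0.50) and 0.23 (-0.08 to 0.54). Kcnma1, the pore of a potassium channel, had 1.64 and 0.21 (-0.25 to 0.68), and Tox, a chromatin protein, 1.26 and 0.23 (-0.13 to 0.59). Without arrays 21, 22, 24 and 25, the grandpaternal value was -0.05 for Kcnma1 and 0.16 for Spink1l.

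Fat handling genes had medians near 0 over both own diets. The 21 genes of fatty acid and triglyceride synthesis had a median of 0.00, the 22 genes of fatty acid oxidation 0.05, the 14 lipoprotein genes -0.01 and the 18 genes of lipid droplets and uptake 0.02. Among females on chow, these medians were -0.11, 0.09, 0.01 and 0.10 in the same order. Among females on the HFD they were 0.11, -0.05, -0.03 and -0.05, and the change between own diets was not tested for these lists. All 14 lipoprotein genes had intervals within 1.5-fold, where 98.1% of all probe sets did. Slc27a5, which activates bile acids and takes up fatty acids, was higher by 0.23 (0.06 to 0.39), Cideb, which lipidates lipoprotein particles, by 0.14 (0.01 to 0.26) and Acadl, a mitochondrial acyl-CoA dehydrogenase, by 0.12 (0.00 to 0.23). G0s2, an inhibitor of fat breakdown, had -0.36 (-0.69 to -0.03). None of these 4 passed, with limma adjusted p-values of 0.432, 0.498, 0.525 and 0.503.

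Bile acid, glucose and xenobiotic genes held a few members that were higher in the HFD line. Of 18 bile acid genes, 4 were higher at an unadjusted p under 0.05, where 4.97% of all probe sets were, and the list's median was 0.01. Nr0b2, the receptor that represses bile acid synthesis, ranged from 7.60 over 9.50 to 10.6 in the chow line and from 8.95 over 9.95 to 10.96 in the HFD line, a difference of 0.47 (0.08 to 0.85), which was 0.31 without arrays 21, 22, 24 and 25. It also rose on the females' own HFD (0.93, limma adjusted p = 0.00701). Cyp27a1, the sterol hydroxylase of the acidic bile acid pathway, had 0.19 (0.02 to 0.36) and Abcc3, an exporter of bile salts, 0.22 (0.01 to 0.44). The 21 genes of glucose metabolism had a median of 0.05 with all 21 intervals within 1.5-fold, where 98.1% of all probe sets were. Slc37a4, the transporter that feeds glucose-6-phosphatase, had 0.14 (0.03 to 0.25) and Foxo3, a forkhead factor restrained by insulin, 0.26 (0.02 to 0.50). Por, the electron donor of the cytochromes P450, was higher by 0.37 (0.10 to 0.64), while 15 of 20 genes of its list were below 0 (median -0.04). Of 20 oxidative stress genes, Gstm1, a glutathione transferase, had 0.17 (0.02 to 0.32) and Srxn1, a sulfiredoxin, -0.17 (-0.33 to -0.01), and all 20 were bounded within 1.5-fold.

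The genes that write and read epigenetic marks were bounded within 1.5-fold throughout, as were 98.1% of all probe sets. A count near that share does not set a list apart. Of 39 listed enzymes of DNA methylation, histone modification and small RNAs, 32 were measured, their median was 0.02 and all 32 intervals lay within 1.5-fold. Dgcr8, a partner of the microRNA-processing enzyme Drosha, had -0.17 (-0.32 to -0.03) and Ezh2, a histone methyltransferase, -0.16 (-0.32 to -0.00), with 0 of the 32 passing. All 17 measured imprinted genes were bounded within 1.5-fold too, with a median of -0.01. Phlda2, an imprinted gene that restrains growth, had -0.21 (-0.37 to -0.05) for grandpaternal diet and fell by 0.63 on the females' own HFD (limma adjusted p = 1.9e-05). Meg3, an imprinted noncoding RNA, had -0.12 (-0.23 to -0.01), with 11 of 11 HFD-line arrays below the chow-line median. All 21 genes of methyl donor metabolism were bounded within 1.5-fold (median 0.03), including Dmgdh and Bhmt of betaine breakdown at -0.12 (-0.21 to -0.03) and -0.13 (-0.25 to -0.01).

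Over both own diets, genes of mitochondria and ribosomes sat slightly above 0, though with no normalization the ribosome median was -0.02. Of 31 oxidative phosphorylation genes 7 were below 0, with a median of 0.06, and 4 were higher at an unadjusted p under 0.05 where 4.97% of all probe sets were. Atp5f1c, a subunit of ATP synthase, ranged from 10.2 over 10.3 to 10.4 in the chow line and from 10.3 over 10.4 to 10.5 in the HFD line, a difference of 0.08 (0.02 to 0.15) with 11 of 11 arrays above the chow-line median. Uqcrfs1, the Rieske protein, had 0.12 (0.02 to 0.22) and Cox4i1, of cytochrome c oxidase, 0.18 (0.03 to 0.34). The median of this list was 0.10 among females on chow and -0.00 among those on the HFD. All 31 intervals lay within 1.5-fold, where 98.1% of all probe sets did. Arrays 21 and 25 (both chow line, chow), which stood apart, had scores of -0.17 and -0.19 for this list. The other chow-line arrays on chow had -0.06 to 0.01. Of the other arrays that stood apart, 22 (chow line, HFD) had -0.17 and 24 (HFD line, HFD) -0.07. For the ribosome list, arrays 21, 25, 22 and 24 had -0.26, -0.28, -0.25 and -0.16. The 21 cytosolic ribosome genes had a median of 0.03, at 0.10 on chow and -0.00 on the HFD, and Rps9 had 0.26 (0.05 to 0.46). With no normalization between arrays Atp5f1c was at 0.02, where the median of all probe sets was -0.04.

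Fast-changing genes were the least well bounded. Only 7 of 15 clock genes had intervals within 1.5-fold, where 98.1% of all probe sets did, and their median was 0.07. Per2, a clock repressor, had 0.43 (0.01 to 0.86), Hlf, a clock output factor, 0.38 (0.06 to 0.70) and Npas2, a clock activator, -0.48 (-0.93 to -0.04). Per2 and Hlf also rose on the females' own HFD, by 1.02 and 0.72 (limma adjusted p = 0.00701 and 0.0118). Of 23 immediate early genes, 17 were below 0, with a median of -0.11, and 14 were bounded within 1.5-fold. Nr4a2, an orphan nuclear receptor, had -0.47 (-0.82 to -0.12), Ier2 -0.29 (-0.53 to -0.05) and Dusp1, a phosphatase of MAP kinases, -0.20 (-0.36 to -0.05), each with 10 of 11 HFD-line arrays below the chow-line median. Without arrays 21, 22, 24 and 25, Nr4a2 was at -0.28 (limma adjusted p = 0.472). Myc went the other way at 0.40 (0.07 to 0.74), with 10 of 11 above. All 26 genes of ER stress and heat shock were bounded within 1.5-fold (median -0.01), with Hsf1, the heat shock factor, at 0.13 (0.03 to 0.23) and Dnajc3, a chaperone of the ER, at -0.13 (-0.24 to -0.02).

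Growth, matrix and amino acid lists were close to 0 as well. The 18 genes of the growth hormone and IGF axis had a median of -0.03, with Socs1, a brake on cytokine signalling, at -0.18 (-0.31 to -0.04). The 28 cell cycle genes had a median of -0.08, and Ube2c, a ubiquitin enzyme of mitosis, had -0.21 (-0.35 to -0.07). Among 21 matrix genes (median -0.02), Col1a2, a collagen chain, had -0.24 (-0.43 to -0.05). Among 26 genes of urea cycle and amino acid breakdown (median -0.01), Haao, an enzyme of tryptophan breakdown, was higher by 0.21 (0.08 to 0.33), with 10 of 11 HFD-line arrays above the chow-line median, and Sdsl, a serine dehydratase, by 0.13 (0.03 to 0.23). None passed.

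Markers of the liver's cell types had list medians between -0.12 and 0.04. All 13 measured hepatocyte markers were bounded within 1.5-fold, where 98.1% of all probe sets were, with a median of -0.01. However, Alb was the brightest probe set on every array but 29, and the normalization fixes the brightest values. Tf, also a marker, read 13.4 on every array but 29, where it read 13.5, and Ttr and Ambp lay between 13.1 and 13.2. Narrow intervals of such bright markers therefore say little about hepatocyte content. The 11 stellate cell markers had a median of -0.12, and Pdgfrb, a growth factor receptor of these cells, had -0.26 (-0.50 to -0.03). Of 7 bile duct markers 5 were below 0 and 2 above, with a median of -0.03. Sox9 had -0.18 (-0.31 to -0.05) and Krt19 -0.24 (-0.44 to -0.04). Of 9 markers of sinusoidal endothelium (median 0.00), Stab2, a scavenger receptor, had 0.21 (0.06 to 0.37). The 14 adipocyte and 8 erythroid markers had medians of 0.01 and 0.04, and Lpl, a lipase that adipocytes share with other cells, had -0.37 (-0.69 to -0.05). Cpa1, a pancreatic enzyme, had -1.02 (-1.74 to -0.29), with HFD-line arrays from 7.21 over 11.4 to 12.3 and chow-line arrays from 10.3 over 11.9 to 13.2, while the 11 acinar markers had a median of -0.01.

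Between-array scaling moved the small medians of the lists across 0. Of 36 list medians, 15 kept their sign with quantile normalization, centring, cyclic loess and no normalization, 11 of them below 0 and 4 above. The interferon, stellate cell, immediate early, cell cycle and Kupffer cell lists were among the 11, and the oxidative phosphorylation and clock lists among the 4.

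**Figure D4:**
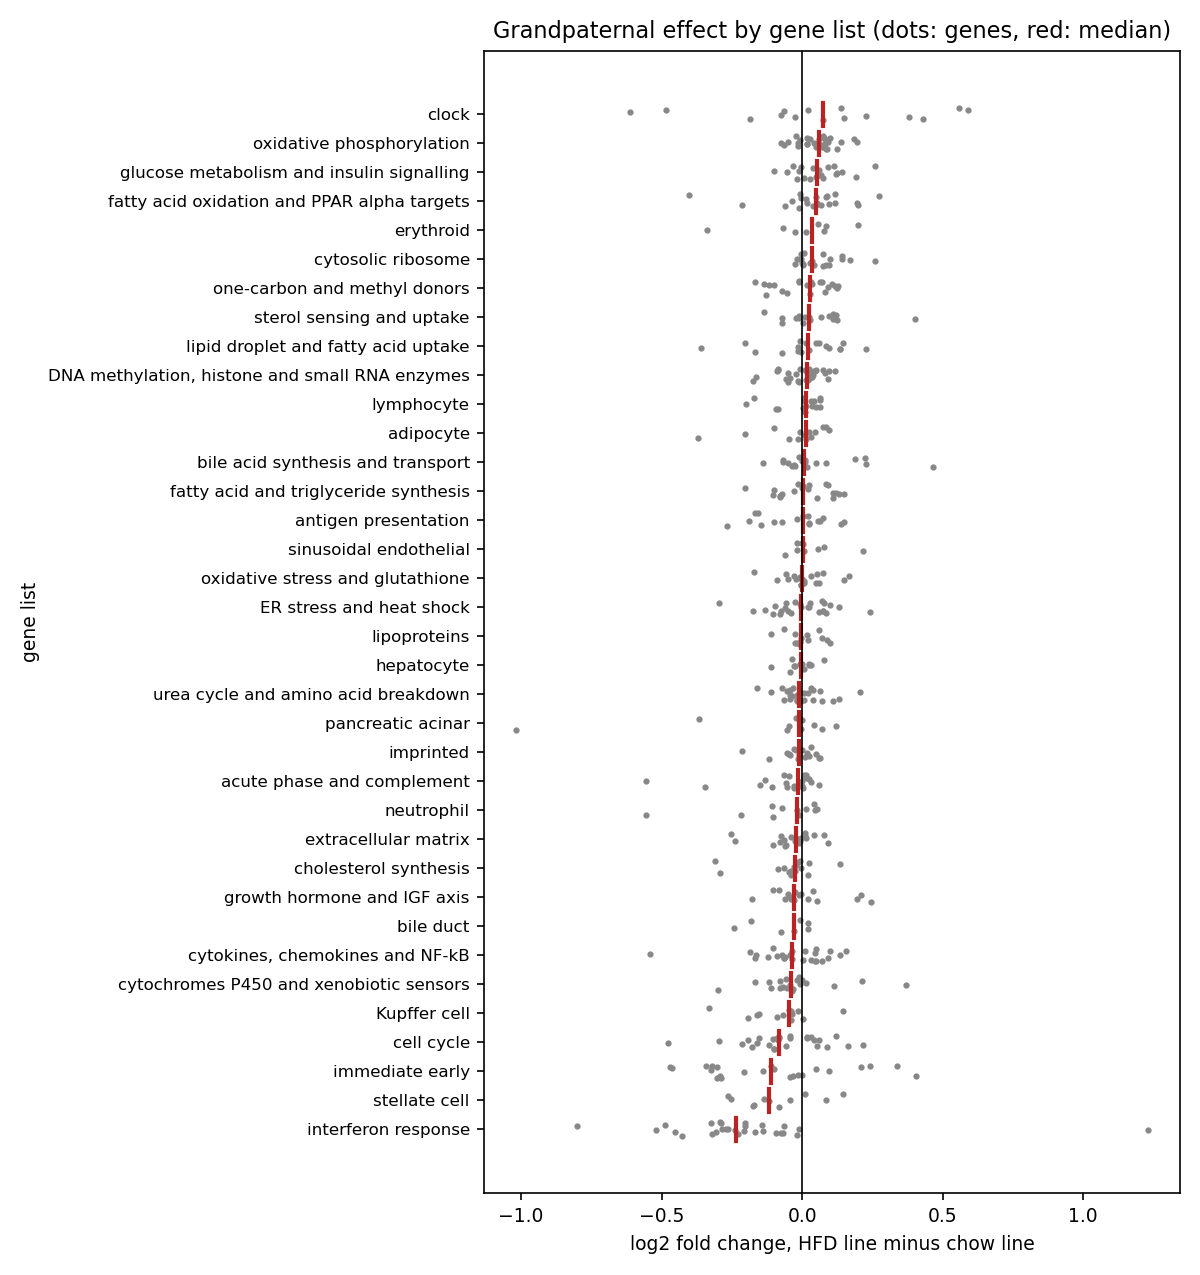
Log2 fold change of grandpaternal diet for every measured member of the 36 gene lists (dots), with the list median as a red mark and lists sorted by it. The interferon response has the lowest median at -0.23, and the medians of the other lists lie between -0.12 for stellate cell markers and 0.07 for clock genes.

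Several of the largest point estimates belonged to genes with wide gaps between arrays. These genes were chosen after their values were seen. Over all probe sets the median of the largest gap between neighbouring arrays was 0.127 on the log2 scale, and 11 probe sets had a gap over 2. Mlc1, a membrane protein known from glia, had no array between 5.87 and 8.28. Above that gap lay 3 of 13 chow-line arrays and 8 of 11 HFD-line arrays, which gave a difference of 1.57 (0.43 to 2.71, limma adjusted p = 0.432). Fam111a, a protease that guards DNA replication, had no array between 5.94 and 7.04, with 10 of 13 chow-line and 4 of 11 HFD-line arrays above it. Its difference was -1.62 (-2.56 to -0.68, limma adjusted p = 0.348), at -1.70 on chow and -1.54 on the HFD.

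Ifit1 belonged to this kind as well, with no array between 4.88 and 5.72 and with 5 of 13 chow-line and 10 of 11 HFD-line arrays above. Cfap95, a protein of cilia, had no array between 5.24 and 9.63, and 6 of 13 chow-line and 3 of 11 HFD-line arrays lay above. Its interval of -3.31 to 0.85 around -1.23 bounded little. Akr1c2, an aldo-keto reductase, had 8 of 13 and 5 of 11 arrays above a gap from 5.35 to 7.29, and a difference of -0.61 (-2.74 to 1.52). This was -0.23 without arrays 21, 22, 24 and 25, and between -1.08 (without array 38, HFD line, chow) and -0.32 (without 24, HFD line, HFD) when 1 array was left out. Nptx2, a pentraxin, had 11 of 13 chow-line and 6 of 11 HFD-line arrays above a gap from 6.90 to 8.58, and a difference of -2.22 on chow against -0.03 on the HFD (unadjusted p of the difference 0.0285). An unadjusted p under 0.05 for that kind of difference was reached by 1403 of 20917 probe sets. Sult1c3, a sulfotransferase, ranged from 4.85 over 6.03 to 9.21 in the chow line and from 5.59 over 7.47 to 10.6 in the HFD line, a difference of 1.24 (0.28 to 2.21). In Ugt2b, a glucuronosyltransferase, 1 array decided the value. Array 42 (HFD line, chow) read 4.41 and the other 23 arrays read 11.7 or more, so that the difference was -0.72 over all arrays and -0.03 without it. A second Ugt2b probe set gave -0.03 (-0.23 to 0.18) over all arrays.

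**Figure D5:**
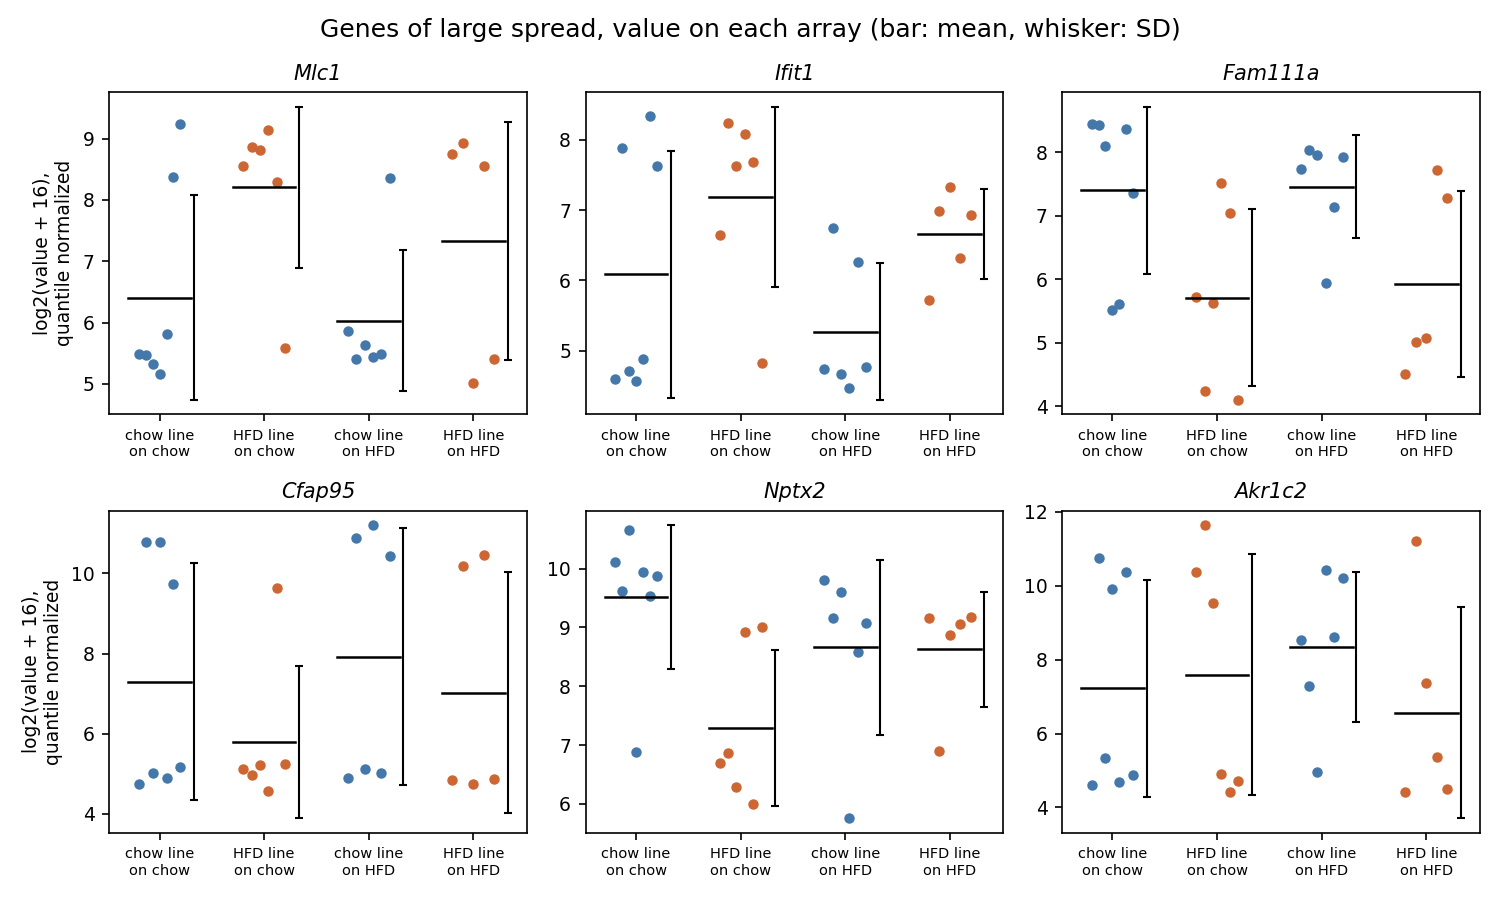
Log2 signal of Mlc1, Ifit1, Fam111a, Cfap95, Nptx2 and Akr1c2 on each of the 24 arrays in the 4 groups, with the bar at the group mean and the whisker at 1 SD. Arrays fall into a high and a low set within most groups, with 8 of 11 HFD-line arrays high for Mlc1 against 3 of 13 in the chow line, and 4 of 11 against 10 of 13 for Fam111a.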

How the data were processed

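The deposited table holds, for each of 24 Affymetrix arrays, a linear intensity of every probe set. Per the submitters' processing notes the authors used Affymetrix Expression Console with the PLIER algorithm; versions, options and genome build were not given in the sources used here. From it log2(intensity + 16) was computed, which understates differences of dim probe sets, and arrays were quantile normalized. All 20917 probe sets were fitted with no filter in limma 3.58.1 (R 4.3.3; lmFit, eBayes with trend) with line and own diet as additive terms; p-values are two-sided, with Benjamini-Hochberg adjustment over all probe sets and a threshold of 0.05. The product term and own-diet-specific effects came from fits with 4 groups. The precision is limited by how many arrays there are. The fit was tested on simulated data.

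Names came from the platform annotation through Entrez identifiers and RefSeq: 18197 probe sets had 1 gene (18052 matched), 960 several and 1760 none here, and 57 rows repeat an earlier row. Genes were named as the 10 of smallest p in each direction (none passed), up to 4 per list of smallest p, and the 6 of smallest p per direction for own diet; a list gene is its brightest probe set. Other probe sets are given for the 20 genes of smallest p and for Ugt2b. The members and the 36 lists (26 of function, 10 of cell types) were chosen with earlier results of these data known. Alternatives were other normalizations, filters on the lowest 25 or 50% of probe sets, offsets of 1 and 50, other limma options, array weights, 1 probe set per gene, own diet left out, arrays 21, 22, 24 and 25 left out or as a block, each own diet alone, and each array left out.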

Additional observations from a re-analysis of the deposited data

Results flagged for a closer look

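Of 440 groups of arrays examined, 4 for each of 110 named genes, 25 held 1 array far from the rest of its group in log2 signal, and chance flags about 1 in 20 groups. None of the 110 genes had an interaction of the 2 diets past the threshold by limma.

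Several of these readings were of the genes with split values. Mlc1 read 8.36 on array 35 (chow line, HFD) and 5.59 on array 42 (HFD line, chow), and Cfap95 read 9.63 on array 41 (HFD line, chow). Nptx2 read 6.88 on array 27 (chow line, chow), 5.76 on array 33 (chow line, HFD) and 6.90 on array 44 (HFD line, HFD). Ugt2b read 4.41 on array 42 (HFD line, chow), where the nearest array of its group read 11.9.

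Among interferon genes, Gbp2 read 7.70 on array 41 (HFD line, chow), Rtp4 read 8.57 on array 26 (chow line, chow) and Cxcl10 read 7.28 on array 47 (HFD line, HFD). Among the genes of smallest p, Cox7a2 read 7.10 on array 44 and Tst 10.9 on array 24 (both HFD line, HFD). Csnk2b read 10.8 on array 39 (HFD line, chow), and Arpc3 read 9.36 on that array and 9.24 on array 34 (chow line, HFD).

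Among genes that changed with own diet, Kcnma1 read 7.64 on array 45 and Tox 9.82 on array 47 (both HFD line, HFD), and Idi1 read 9.15 on array 39 (HFD line, chow). Of the lipid and bile genes, Soat2 read 10.4 on array 37 (HFD line, chow) and Abcc3 7.63 on array 47 (HFD line, HFD). Por read 11.05 and Dgcr8 read 8.40 on array 22 (chow line, HFD), which is 1 of the 4 arrays that stood apart. Per2 read 8.03 on array 30 (chow line, chow), Meg3 5.62 on array 31 (chow line, HFD) and Dmgdh 11.03 on array 45 (HFD line, HFD).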

How the results depend on the processing

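In 24 fits that each left out 1 array, 0 to 11 probe sets passed for grandpaternal diet: 3 without array 28, 1 without 33, 4 without 34 and 11 without 24, with 0 without any other array. Those without 28 and without 34 were all probe sets of Samd9l. Array weights gave 9 (smallest adjusted p 0.0398), females on chow alone 1 (Fam120a), and the other settings with all or 20 arrays 0, with smallest limma adjusted p-values from 0.0587 (lowest 50% of probe sets left out) to 0.125 (centring), while females on the HFD alone had 0.771. The share of probe sets bounded within 1.5-fold lay between 96.6% (offset 1) and 98.8% (offset 50) over all arrays. Own diet called 255 probe sets with no normalization and 578 with the 4 arrays as a block, against 383. Of the probe sets at an unadjusted p under 0.05, 52.9% were higher in the HFD line, against 6.83% with no normalization (141 higher and 1923 lower, median difference of all probe sets -0.04), 60.3% after centring and 45.9% after cyclic loess; the cause was not tested. The interferon list had 27 of 28 genes below 0 under each normalization, with medians of -0.29 (none), -0.23 (centred) and -0.24 (loess), and 25 to 27 when single arrays were left out. Some signs turned. With no normalization Setbp1 was at -0.0098. After centring, Cyp51 was at 0.011, Acat2 at 0.0012 and Fdft1 at 0.0039. With array weights, Spink1l was at 0.11 and Fdft1 at 0.0024, and with own diet left out Acat2 was at 0.0081. Without the 4 arrays Spink1l was at 0.16 and Kcnma1 at -0.052, and with them as a block Spink1l was at 0.065 and Fdft1 at 0.0057. On chow alone Setbp1 was at -0.0097, Spink1l at 0.027, Rtp4 at 0.032 and Akr1c2 at 0.37, and on the HFD alone Cyp51 was at 0.026, Acat2 at 0.032 and Fdft1 at 0.022. With single arrays left out, Acat2 ran from -0.066 to 0.060, Cyp51 from -0.076 to 0.038, Fdft1 from -0.055 to 0.010 and Spink1l from -0.13 to 0.11. Of 4480 gene values compared with their reported value, 50 turned sign and 14 newly passed. Of 1476 list medians, 1467 moved by less than 1 SD of the array scores. No paired analysis was possible because no array number occurs in more than 1 group.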
